A study of Homo sapiens with 18 samples.

Results

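The 5 genes described here encode the cytoplasmic actins ACTB (beta-actin) and ACTG1 (gamma-actin), the smooth muscle actin ACTA2, the actin histidine methyltransferase SETD3 and the actin N-terminal acetyltransferase NAA80. They were taken by gene symbol from the 60683 gene rows that both deposited count tables hold, and each symbol matched 1 row.

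Beta- and gamma-actin are near-identical proteins that build the filaments of non-muscle cells, and most cells make both. SETD3 places a methyl group on a conserved histidine of actin, and NAA80 acetylates the N terminus that is exposed after the first residues are trimmed off. Actin monomers also hold back the coactivators MRTFA and MRTFB of the transcription factor SRF, and many cytoskeletal genes are SRF targets.

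Poly(A) RNA was sequenced from HCT-116, an established colorectal carcinoma cell line, in 18 libraries that form 6 groups of 3. The first table, called the actin table below, held Actin KO cells given an empty construct and 2 add-back groups made in that knockout background. ACTB-WT is labelled as over-expression of wild-type actin and ACTB-mut as over-expression of a mutant, which the series design names as H73A. The other, the SETD3 table, held SETD3_CT controls and the knockout lines SETD3_KO1 and SETD3_KO2. All 9 libraries of the actin table thus carry the actin knockout by their labels, and those of the SETD3 table carry no actin edit. The labels do not say how the lines were edited, whether a line is a single clone, what drives the actin construct, or whether replicates were separate cultures. The p-values therefore measure the spread between these libraries, which may be technical. Replicate 3 of SETD3_KO2 has the cell line label HCT-117 where the other 17 libraries have HCT-116, and it was kept in its group.

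Total counts ran from 5144386 to 11271910 in the actin table and from 3389586 (SETD3_KO2 replicate 1) to 11652967 in the SETD3 table. Epithelial markers summed to between 8018 and 13611 CPM (counts per 1000000 counts of a library), carried by KRT8, KRT18, KRT19 and EPCAM, while VIL1 was at or near 0. Fibroblast markers summed to at most 15.2 CPM in a library, smooth muscle markers to at most 9.90 CPM and blood markers to at most 1.62 CPM. PTPRC, CD3E, COL3A1 and LUM had no count in any library, while COL1A1 reached 15.2 CPM, DES 9.45 CPM and HBA1 1.62 CPM. The epithelial marker CDH1 stood at only 0.633 to 10.5 CPM. The 3 Actin KO libraries stood apart from the other 15 in a block of genes next to ACTB on chromosome 7, which is described with its values at the end. In bulk RNA, fewer cells that express a gene and less RNA per cell cannot be told apart.

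The sequence that the genotypes turn on is the codon of the methylated histidine of ACTB, shown in capitals within 63 coding bases. Codons are counted from the initiator ATG, and sequences come from the principal transcripts of GENCODE release 29 on GRCh38.
ACTB codon 73: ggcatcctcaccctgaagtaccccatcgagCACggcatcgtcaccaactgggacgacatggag
This codon lies in exon 3 of ACTB at chr7:5529305-5529307, on the minus strand.

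The start of the coding sequence, where the processed N terminus that NAA80 acts on is encoded, sets the 2 cytoplasmic actins apart. Capitals mark codons 2 to 5 of the first 33 coding bases.
ACTB start: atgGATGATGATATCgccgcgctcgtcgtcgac
ACTG1 start: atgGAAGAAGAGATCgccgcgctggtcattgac
ACTA2 start: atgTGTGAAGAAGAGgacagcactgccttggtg
These windows lie at chr7:5529625-5529657, chr17:81512322-81512354 and chr10:88948898-88948930, all on the minus strand. ACTB and ACTG1 differed at 6 of these 33 bases and at 99 of 1128 coding bases, an identity of 91.2%. Over whole transcripts, 10 of the 1872 windows of 50 bases in ACTB also occurred in ACTG1 (0.534%), and none occurred in ACTA2. Stretches of 50 bases thus told the 2 cytoplasmic actins apart over nearly all of their length. The read length was not given in the sources used here, and RSEM shares out reads that fit both. In the actin table, ACTB counts were only 0.217% to 0.744% of ACTG1 counts, and 0.453% of the 50-base windows of ACTG1 also occurred in ACTB. How many ACTB counts of that table came from ACTG1 reads was not tested.

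ACTB (ENSG00000075624, GRCh38 chr7:5527147-5563784, minus strand) was far lower in every library of the actin table than in any of the SETD3 table. Levels here are CPM after TMM scaling, which corrects for library composition, over all 18 libraries together. ACTB stood at 1167, 867 and 1277 CPM in SETD3_CT, at 1448, 1257 and 1336 CPM in SETD3_KO1 and at 658, 971 and 1244 CPM in SETD3_KO2. In Actin KO it stood at 17.0, 25.4 and 15.1 CPM, from 126 to 203 counts a library. ACTB-WT libraries had 31.6, 29.7 and 23.4 CPM, and ACTB-mut libraries had 47.5, 32.04 and 43.6 CPM. Every library of the actin table lay below every library of the SETD3 table, and the highest ACTB-mut value was far below the lowest SETD3_KO2 value.

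Between Actin KO and SETD3_CT, ACTB fell by 5.85 on the log2 scale (SE 0.27, edgeR adjusted p = 4.46e-12), the lowest p of 15580 tested genes. Of the 5 genes, ACTB and ACTG1 passed the test there, against 0.205% of all genes in either direction. The 2 tables are different sets of libraries, so table and genotype cannot be told apart in this comparison. ACTB and ACTG1 also separated all 9 libraries of the actin table from all 9 of the SETD3 table, which 0.128% of tested genes did.

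Within the actin table no ACTB difference passed the test. edgeR called none of the 5 genes in ACTB-WT against Actin KO, where it called 1.12% of all genes, in ACTB-mut against Actin KO (0.922%) or in ACTB-mut against ACTB-WT (1.24%). At an unadjusted p under 0.05 there were 0, 3 (ACTB, ACTG1 and SETD3) and 1 (ACTG1) of the 5, beside 1559, 1597 and 1666 of all 13882 genes. ACTB differed from Actin KO by a log2 value of 0.56 (SE 0.28, adjusted p = 0.496) in ACTB-WT and of 1.11 (SE 0.28, adjusted p = 0.093) in ACTB-mut. ACTB-WT and Actin KO overlapped by library (the highest Actin KO value, 25.4 CPM, exceeded the lowest ACTB-WT value), whereas all 3 ACTB-mut libraries were above all 3 Actin KO and all 3 ACTB-WT libraries. The ACTB-mut difference passed with DESeq2 (adjusted p = 0.00965) and without a filter on low counts (adjusted p = 0.0389). Adjusted p over the alternatives ran from 0.00965 to 0.334. ACTB-mut and ACTB-WT differed by 0.55 (adjusted p = 0.463). RNA assigned to ACTB in the libraries labelled as over-expressing actin thus stayed near the Actin KO level, and the sequence of the expression construct was not used here. How much of this low ACTB signal came from ACTG1 reads was not tested.

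**Figure D1:**
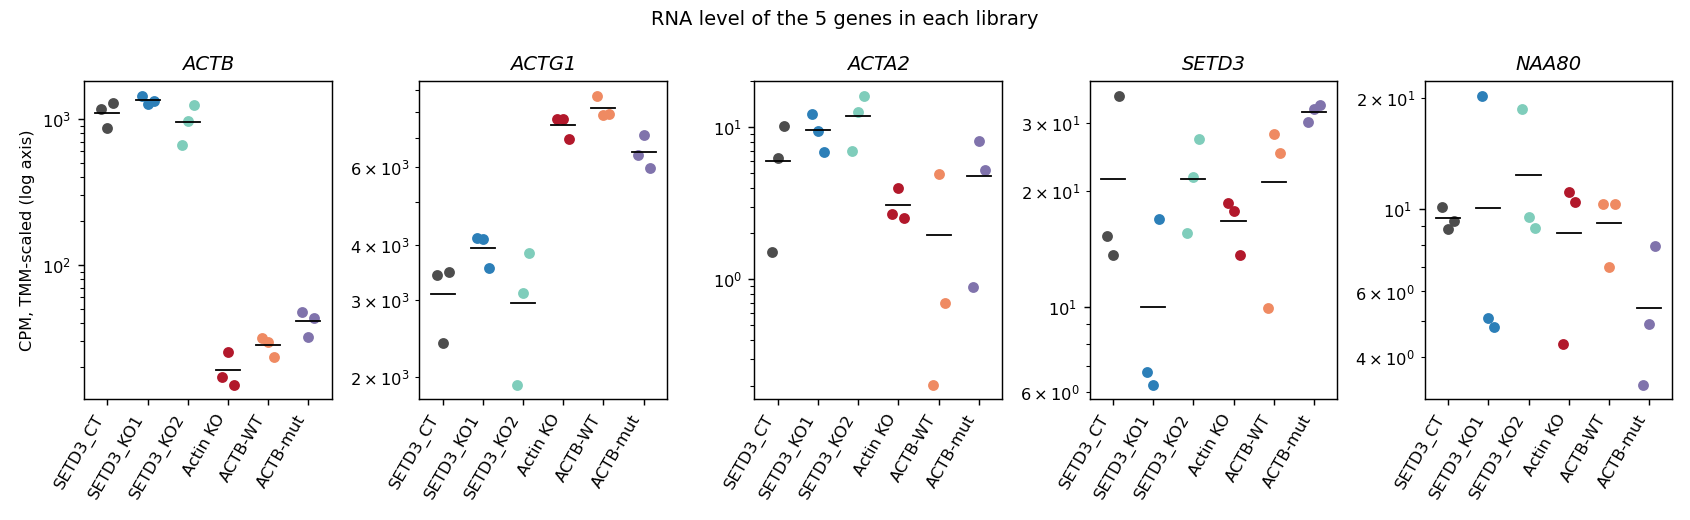
TMM-scaled CPM of ACTB, ACTG1, ACTA2, SETD3 and NAA80 in each of the 18 libraries by group, on log axes that differ between panels; points are libraries in the order of replicates 1 to 3 and bars are means of 3. ACTB falls into 2 ranges, 15.1 to 47.5 CPM in the actin table and 658 to 1448 CPM in the SETD3 table, and ACTG1 lies higher in the actin table.

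ACTG1 (ENSG00000184009, chr17:81509971-81523847, minus strand) moved the other way. It stood at 3415, 2394 and 3462 CPM in SETD3_CT and at 7720, 7737 and 6961 CPM in Actin KO, groups that do not overlap, as ACTB did not either and 12.8% of all genes did not. The rise was 1.27 on the log2 scale (SE 0.18, edgeR adjusted p = 0.000731), the 8th lowest p of all genes. The call was lost with offsets for GC content, where the fold kept its size (1.26) and the SE grew to 0.31 (adjusted p = 0.155). It held in the other 13 alternatives. ACTG1 reached 8739, 7888 and 7945 CPM in ACTB-WT and 6386, 7120 and 5986 CPM in ACTB-mut.

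Within the actin table, ACTG1 was higher in each ACTB-WT library than in each Actin KO library, by 0.13 (SE 0.08, adjusted p = 0.616). It was lower in each ACTB-mut library than in each ACTB-WT library, by a log2 difference of -0.32 (SE 0.08, adjusted p = 0.0826). That last difference passed with DESeq2 (adjusted p = 0.0255), with limma-voom (0.0115) and without ACTB-mut replicate 2 (0.035), and did not in the other alternatives, whose adjusted p reached 0.536. Separation of this kind is common here: 16.8% of genes did not overlap between ACTB-WT and Actin KO, and 18.1% between ACTB-mut and ACTB-WT.

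In the SETD3 table neither cytoplasmic actin passed, nor did any of the 5 genes with edgeR, DESeq2 or limma-voom. In the edgeR fits, ACTB between the knockout lines was the 1 value of these genes with an unadjusted p under 0.05. Between those lines 670 of all 13846 genes had such a p. Genes called over the whole table were few, 0.0144% for SETD3_KO1 against SETD3_CT, 0.0578% for SETD3_KO2 against SETD3_CT and 0.0289% between the knockout lines. ACTG1 stood at 4135, 4130 and 3537 CPM in SETD3_KO1, above every SETD3_CT library, and at 1921, 3106 and 3825 CPM in SETD3_KO2, which overlapped the controls. ACTG1 was the 1 gene of the 5 without overlap between SETD3_KO1 and SETD3_CT (13.2% of all genes), ACTB, lower in SETD3_KO2, was the 1 between the knockout lines (11.9%), and there was none between SETD3_KO2 and SETD3_CT (10.2%). The log2 differences from SETD3_CT were 0.34 (SE 0.23) for ACTG1 and 0.27 (SE 0.22) for ACTB in SETD3_KO1, and -0.07 (SE 0.23) and -0.21 (SE 0.22) in SETD3_KO2. All of these had adjusted p = 0.998 or 1. The lowest ACTB and ACTG1 values of the table were both in SETD3_KO2 replicate 1, its shallowest library. Without it the SETD3_KO2 differences were 0.01 for ACTB and 0.17 for ACTG1.

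The balance between the actins was compared per kilobase of principal transcript (1.921 kb for ACTB, 2.256 kb for ACTG1). ACTB made up 26.3% to 30.7% of the summed ACTB and ACTG1 level per kilobase in the 9 libraries of the SETD3 table. In the actin table it made up 0.254% to 0.384% in Actin KO libraries, 0.344% to 0.440% in those of ACTB-WT and 0.526% to 0.866% in those of ACTB-mut. The share is therefore similar across control and SETD3 knockout libraries despite a wide range of actin totals, with means of 29.6% ± 0.835 in SETD3_CT, 28.7% ± 2.22 in SETD3_KO1 and 27.7% ± 0.929 in SETD3_KO2 (SD, n = 3).

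The summed level per kilobase was no lower where ACTB was low. It ran from 1194 to 2587 CPM per kilobase in the SETD3 table and from 2676 to 3890 in the actin table, without overlap. Group means were 1944 ± 376 in SETD3_CT, 2901 ± 252 in ACTB-mut, 3322 ± 198 in Actin KO and 3645 ± 212 in ACTB-WT (SD, n = 3). With union exon lengths in place of the principal transcript the ranges were 829 to 1793 and 2012 to 2929, again without overlap.

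**Figure D2:**
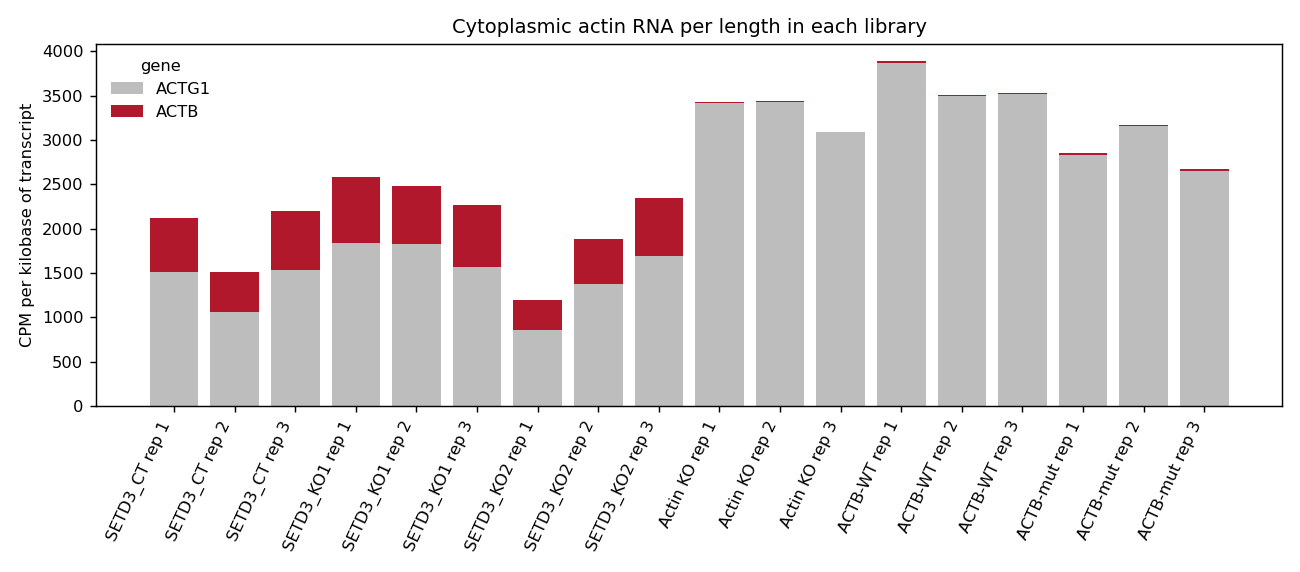
Stacked bars of ACTG1 (grey) and ACTB (red) in CPM per kilobase of principal transcript for each library. ACTB is visible as 26.3% to 30.7% of the bar in the SETD3 table and is at most 0.866% in the actin table, where the whole bar is taller.

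ACTA2 (ENSG00000107796, chr10:88935074-88991339, minus strand), an actin of smooth muscle cells and myofibroblasts, was a minor RNA in every group. It stood at 1.52, 6.27 and 10.2 CPM in SETD3_CT, at 12.2, 9.49 and 6.90 CPM in SETD3_KO1 and at 6.96, 12.5 and 16.2 CPM in SETD3_KO2. Actin KO had 2.70, 4.00 and 2.54 CPM, ACTB-WT 0.202, 4.92 and 0.702 CPM, and ACTB-mut 0.883, 8.08 and 5.27 CPM. All these groups overlapped with those they were compared with. Its counts ran from 1 to 198 a library, and edgeR's trended variation between replicates was 80.3% in the actin table, so moderate changes were not detectable. Its difference between Actin KO and SETD3_CT was -0.95 (SE 0.88, adjusted p = 0.921). ACTA2 shares 380 exon bases with FAS and 516 with ACTA2-AS1 on the opposite strand, and since the strand setting of the counting was not given in the sources used here, reads there cannot be told apart.

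The muscle actins ACTA1 and ACTC1 had 0 counts in all 18 libraries, which allows at most 0.244 to 0.948 CPM at 3 counts a library. ACTG2 was counted in 1 library, an ACTB-mut library, at 3.47 CPM. Of 30 annotated pseudogenes of ACTB and ACTG1, 5 had any count, and together they held at most 0.529% of the ACTB and ACTG1 counts. ACTG1P17 was the largest, with 221 counts over all libraries, followed by ACTG1P9 with 43.6 and ACTBP13 with 11.5. Adding pseudogene counts to their parent genes changed no call among the 5 genes.

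SETD3 (ENSG00000183576, chr14:99397746-99480889, minus strand) is the gene targeted in the second table, and its RNA did not clearly mark the knockout lines. It stood at 15.2, 13.6 and 35.5 CPM in SETD3_CT, at 6.77, 6.25 and 16.9 CPM in the libraries labelled SETD3_KO1 and at 15.5, 21.8 and 27.3 CPM in those labelled SETD3_KO2. SETD3_CT replicate 3 was well above the other controls, and SETD3_KO1 replicate 3 lay within the control range. The differences from control were -1.12 (SE 0.52, adjusted p = 0.879) and 0.01 (SE 0.51, adjusted p = 1). Without SETD3_CT replicate 3 the SETD3_KO1 difference was -0.54 (adjusted p = 1), and without SETD3_KO1 replicate 3 it was -1.73 (adjusted p = 1). SETD3_KO1 and SETD3_KO2 differed by 1.12 (SE 0.52, adjusted p = 0.999). Leaving out the library labelled HCT-117 gave -0.20 for SETD3_KO2 against control. Gene-level counts include RNA with a frameshift and show no edit.

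SETD3 in the actin table had 18.6, 17.8 and 13.6 CPM in Actin KO, at 9.91, 28.2 and 25.1 CPM in ACTB-WT and at 30.2, 32.7 and 33.4 CPM in ACTB-mut. All ACTB-mut libraries were above all others of that table. The difference from Actin KO was 0.96 (SE 0.35, adjusted p = 0.278) and from ACTB-WT 0.61 (SE 0.35, adjusted p = 0.54), and neither was called in any alternative. ACTB and SETD3 were the 2 of the 5 genes that did not overlap between ACTB-mut and Actin KO, a comparison in which 18.5% of all genes did not.

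NAA80 (ENSG00000243477, chr3:50296402-50299421, minus strand) spread widely among the libraries of a group. It stood at 10.2, 8.86 and 9.33 CPM in SETD3_CT, at 20.3, 5.09 and 4.80 CPM in SETD3_KO1 and at 18.7, 9.53 and 8.89 CPM in SETD3_KO2. Actin KO had 4.32, 11.1 and 10.5 CPM, ACTB-WT 10.3, 6.98 and 10.4 CPM and ACTB-mut 3.36, 4.89 and 7.97 CPM. Replicate 1 was the high library in both SETD3 knockout lines and the low library in Actin KO. No difference passed, the largest being -0.76 (SE 0.54, adjusted p = 0.657) for ACTB-mut against ACTB-WT. NAA80 shares 248 exon bases with HYAL3 on the same strand, a hyaluronidase gene counted at 1.58 to 19.96 CPM, so its level rests in part on how RSEM divided those reads.

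**Figure D3:**
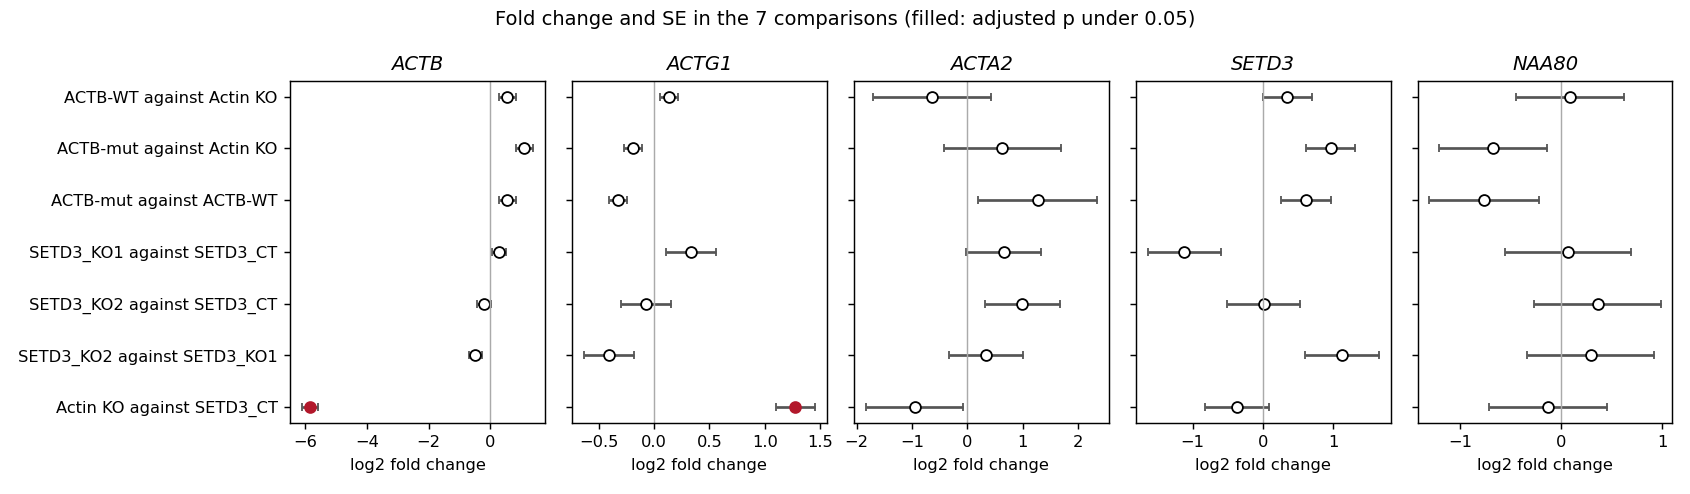
Log2 fold changes with SE for the 5 genes in the 7 comparisons; filled points have an edgeR adjusted p under 0.05. The filled points are ACTB at -5.85 and ACTG1 at 1.27, both in Actin KO against SETD3_CT, and the horizontal scales differ between panels.

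SETD3 and NAA80 belong to a wider group of enzymes that process or modify actin, of which 10 were listed and all 10 were tested in every comparison. None was called in any of the 7 comparisons by edgeR. At an unadjusted p under 0.05 there were 4 in ACTB-mut against Actin KO (1597 of all 13882 genes) and at most 1 in each other comparison. DESeq2 called ALKBH4 in the former (395 of all genes) and MICAL1 in ACTB-mut against ACTB-WT (446 of all genes). Their median log2 difference was -0.26 for ACTB-mut against Actin KO, where the median of all genes was 0.03, and between -0.08 and 0.17 in the other 6. MSRB1, a methionine sulfoxide reductase that restores oxidised actin, had group means of 66.6 to 89.8 CPM. These were the highest of the 10 enzymes in every group but Actin KO, where the ALKBH4 mean was 85.1 CPM. ALKBH4, a dioxygenase reported to demethylate actin, had 71.4 to 96.8 CPM in Actin KO, above the 30.3 to 59.4 CPM of SETD3_CT, the 43.5 to 64.1 CPM of ACTB-WT and the 36.0 to 62.9 CPM of ACTB-mut (0.84, SE 0.30, adjusted p = 0.487 against SETD3_CT). ALKBH4 in the add-back groups differed from Actin KO by -0.68 (adjusted p = 0.234) and -0.74 (adjusted p = 0.192).

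MICAL1, a monooxygenase that oxidises actin methionines, stood at 4.39 to 8.57 CPM in ACTB-mut, below the 14.1 to 19.8 CPM of ACTB-WT and the 11.6 to 21.1 CPM of Actin KO, with log2 differences of -1.40 (adjusted p = 0.136) and -1.29 (adjusted p = 0.196). MICAL2, MSRB2 and C19orf54, which encodes the protease that matures the actin N terminus, had group means between 12.1 and 22.6 CPM with overlapping libraries. ATE1, which arginylates actin, ranged from 0 to 7.56 CPM and MICAL3 from near 0 to 15.3 CPM, where the counts were too few to show a change of moderate size. ATE1 had 0 to 1.71 CPM in SETD3_KO2 and 4.28 to 6.59 CPM in SETD3_CT (-2.42, SE 1.07, edgeR adjusted p = 0.959). MICAL3 had near 0 to 1.65 CPM in SETD3_KO1 and 2.00 to 8.43 CPM in SETD3_CT (-2.44, SE 1.22, edgeR adjusted p = 0.905). Of all genes, 10.2% and 13.2% did not overlap in these comparisons.

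**Figure D4:**
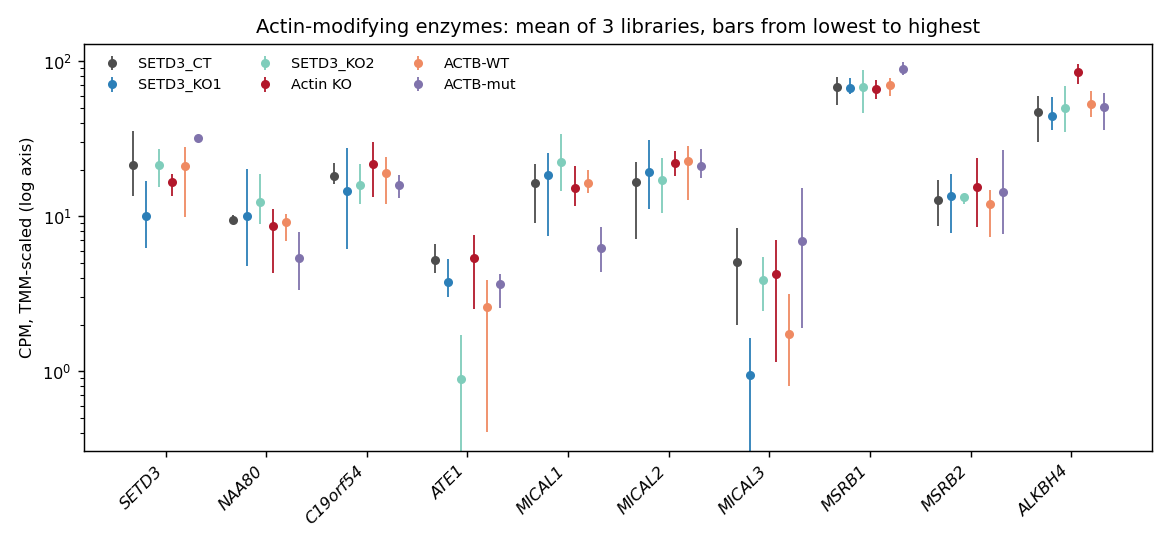
TMM-scaled CPM (log axis) of the 10 actin-modifying enzymes by group; points are means of 3 libraries and bars run from the lowest to the highest library, reaching the axis where a library is at 0. Most bars of a gene overlap across groups, ALKBH4 is highest in Actin KO and MICAL1 lowest in ACTB-mut.

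RNAs of proteins that bind actin monomers spanned a wide range of levels. Of 9 listed (profilins, cofilins, thymosins, CAP proteins and gelsolin), 8 were tested within each table and 9 in the joint fit, and none was called by edgeR in any comparison. At an unadjusted p under 0.05 there were at most 2 in a comparison, reached in ACTB-WT against Actin KO (1559 of all 13882 genes). DESeq2 called CFL1 in ACTB-mut against ACTB-WT (446 of all 13882 genes) and TMSB10 in SETD3_KO2 against SETD3_CT (90 of all 13846 genes). CFL1 (cofilin, which severs filaments) had group means of 3381 to 4472 CPM and PFN1 (profilin, which feeds monomers to filament ends) had 1135 to 1327 CPM. TMSB10 had 1353 to 2766 CPM and PFN2 107 to 137 CPM. The means of TMSB4X, CAP1, CFL2 and GSN lay between 14.3 and 44.1 CPM, and those of CAP2 between 0.340 and 0.715 CPM. Of 11 actin-like and actin-related genes, including the ACTR2 and ACTR3 subunits of the Arp2/3 complex that starts branches, 6 were tested within the actin table and none was called by edgeR or DESeq2 in any comparison, with at most 2 at an unadjusted p under 0.05. These 2 were reached in ACTB-mut against Actin KO and against ACTB-WT, where 1597 and 1666 of all 13882 genes had such a p.

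Of 17 regulators and targets of SRF and MRTF, 15 were tested within each table. SRF itself had group means of 26.1 to 42.3 CPM and MRTFA of 22.9 to 35.0 CPM, and neither was called. In ACTB-WT against Actin KO, TAGLN (transgelin, an actin-bundling protein) rose by 4.35 (SE 0.56, adjusted p = 0.00172) and ZYX (zyxin, of focal adhesions) fell by 1.14 (SE 0.20, adjusted p = 0.00754). Both were called in all 14 alternatives, and edgeR called 1.12% of all genes in this comparison. TAGLN stood at 1.13 to 13.6 CPM in Actin KO and 131 to 164 CPM in ACTB-WT. Its level in ACTB-mut was 15.3 to 25.1 CPM, lower than in ACTB-WT by a log2 difference of -2.86 (SE 0.51, adjusted p = 0.0177), a call that was lost without any 1 of the 6 libraries compared (adjusted p up to 0.114).

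In ACTB-mut against Actin KO, 3 of the 15 fell and none rose: ZYX by 1.16 (SE 0.20, adjusted p = 0.0104), FLNA (filamin A, a crosslinker) by 0.87 (SE 0.15, adjusted p = 0.0122) and CNN2 (calponin 2) by 0.58 (SE 0.10, adjusted p = 0.0137). Of all genes, 0.922% were called there, 45 higher and 83 lower. ZYX and FLNA lost their call without Actin KO replicate 3 (adjusted p = 0.0545 and 0.0673), and CNN2 lost it in 6 of 14 alternatives. Against ACTB-WT, FLNA fell by 0.71 (adjusted p = 0.0309) and MYL9 (a myosin light chain) by 0.73 (adjusted p = 0.0273) in ACTB-mut, and these calls were lost in 7 and 8 of 14 alternatives. In that comparison 1.24% of all genes were called. The median log2 difference of the list was 0.34 in ACTB-WT and -0.18 in ACTB-mut, each against the same Actin KO libraries, with all-gene medians of -0.01 and 0.03. The ACTB-WT median was the value of FHL1 (SE 1.03, edgeR adjusted p = 0.965), a gene at 0 to 7.20 CPM in that group. The ACTB-mut median was the value of VCL (SE 0.24, edgeR adjusted p = 0.872).

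None of the 15 was called by edgeR in the SETD3 table, where at most 1 in a comparison had an unadjusted p under 0.05, beside 670 to 796 of all 13846 genes. DESeq2 called TAGLN for SETD3_KO1 against SETD3_CT (72 of all genes) and between the knockout lines (56 of all genes). Limma-voom also called TAGLN between the knockout lines (2.53, SE 0.42, adjusted p = 0.0368). Between Actin KO and SETD3_CT, TAGLN fell by 2.98 (SE 0.50, adjusted p = 0.00657), a call lost in the fit of the 2 groups alone and without Actin KO replicate 3 (adjusted p up to 0.258), and the list's other 15 tested genes were not called. Of all genes, 0.205% were called there.

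The promoter of ACTG1 is printed with the CArG box, a short element through which SRF acts and that several actin promoters carry. Whether SRF has a part in the ACTG1 difference between Actin KO and SETD3_CT was not tested. The window is the 150 bases before the RefSeq start on GRCh38.p14, chr17:81512800-81512949, minus strand, and capitals mark the element, at chr17:81512884-81512893.
ACTG1 promoter: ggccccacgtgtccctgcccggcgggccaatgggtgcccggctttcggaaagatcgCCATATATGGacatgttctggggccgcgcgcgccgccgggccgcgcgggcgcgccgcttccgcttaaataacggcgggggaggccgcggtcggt
The element, which reads as the same pattern on both strands, lies 94 to 85 bases before the start. It occurred in 454 of 35116 promoter windows of 300 bases (1.29%). Of the 5 genes, 4 (all but ACTB) matched a window, and those of ACTA2, SETD3 and NAA80 did not hold it. Windows of ACTA1 and ACTG2 and 1 of 3 windows of ACTC1 also held it. A match of letters is no binding site. Only exact matches were searched, so a window without one may still hold a diverged form of the element.

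The region around ACTB was examined after its values had been seen, because genes of distal chromosome 7 recurred among the calls of Actin KO. Genes with a mean of at least 10 CPM were taken within 5 Mb on either side of ACTB. All 30 genes at lower coordinates, from PRKAR1B to FBXL18, were below 0 in Actin KO against SETD3_CT, with a median log2 difference of -1.02. Of all 7129 genes at that level, 47.4% were below 0 and the median was 0.03. Within the actin table all 30 were above 0 in ACTB-WT against Actin KO (median 1.00) and 29 of 30 in ACTB-mut against Actin KO (median 0.69). The last 2 comparisons share the Actin KO libraries with the first.

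FBXL18, the neighbour 13.3 kb from ACTB, stood at 42.4 ± 3.13 CPM in Actin KO, 79.2 ± 5.52 in SETD3_CT, 78.9 ± 14.3 in ACTB-WT and 69.8 ± 16.4 in ACTB-mut (SD, n = 3). EIF3B, a translation initiation factor subunit, stood at 486 ± 6.44, 811 ± 112, 841 ± 116 and 585 ± 152 CPM in the same groups. Genes of this set passing the test were ELFN1-AS1, GET4 and IQCE, all lower, in Actin KO against SETD3_CT. In ACTB-WT against Actin KO they were SUN1, GET4, ADAP1, INTS1, ELFN1-AS1, NUDT1, EIF3B and BRAT1, 8 of 30 and all higher, and in ACTB-mut against Actin KO they were SUN1 and PSMG3. Of all genes, 0.205%, 1.12% and 0.922% passed in these 3 comparisons. The region was itself chosen because its genes recurred among the calls of Actin KO. ELFN1-AS1 differed by 1.22 (SE 0.20, adjusted p = 0.00462) between ACTB-WT and Actin KO, a call kept in all 14 alternatives. Its call in Actin KO against SETD3_CT was lost in 4 of 14 alternatives (adjusted p up to 0.107). The calls of GET4 and IQCE against SETD3_CT were lost when any 1 library was left out, and that of GET4 in ACTB-WT against Actin KO was lost in 8 of 14 alternatives (adjusted p up to 0.157). The other called neighbours were not followed over the alternatives. Their edgeR adjusted p reached 0.0421, for SUN1 in ACTB-WT against Actin KO.

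The shift was seen in each Actin KO library. Relative to the SETD3_CT mean, the median of the 30 genes was -0.98 to -0.76 in the 3 Actin KO libraries and -0.25 to 0.34 in the other 15. Over 13 alternatives the group median stayed between -1.07 and -0.85 for Actin KO against SETD3_CT, between 0.92 and 1.02 for ACTB-WT and between 0.64 and 0.90 for ACTB-mut against Actin KO. On the other side of ACTB the direction differed: the medians of 16 genes were 0.23, -0.36 and -0.45 in those comparisons, and those of the 304 genes from there to the end of chromosome 7 were 0.23, -0.18 and -0.26. Of the 16 genes, FSCN1 and ICA1 were called lower in ACTB-mut against Actin KO (edgeR adjusted p = 0.0387 and 0.0298), as were 0.922% of all genes in either direction. FSCN1 was also called lower in ACTB-mut against ACTB-WT (edgeR adjusted p = 0.00143, 1.24% of all genes). None of the 16 was called in Actin KO against SETD3_CT or in ACTB-WT against Actin KO.

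Across 203 bins of 5 Mb with at least 10 such genes, the bin at the start of chromosome 7 (28 genes) had the lowest median in Actin KO against SETD3_CT, -1.04, the next being -0.62. It had the highest in ACTB-WT against Actin KO (1.03, the next 0.63) and in ACTB-mut against Actin KO (0.71, the next 0.42). Genes around ACTG1 showed no shift of this size in Actin KO against SETD3_CT, with medians of 0.00 over 40 genes at lower coordinates and 0.16 over 45 at higher coordinates. In the 3 comparisons of the SETD3 table the medians of the 30 genes beside ACTB lay between -0.08 and 0.04.

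ACTB itself differed by 0.56 and 1.11 in ACTB-WT and ACTB-mut against Actin KO, beside neighbour medians of 1.00 and 0.69 from the same libraries. What part the regional difference has in these ACTB values was not tested.

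**Figure D5:**
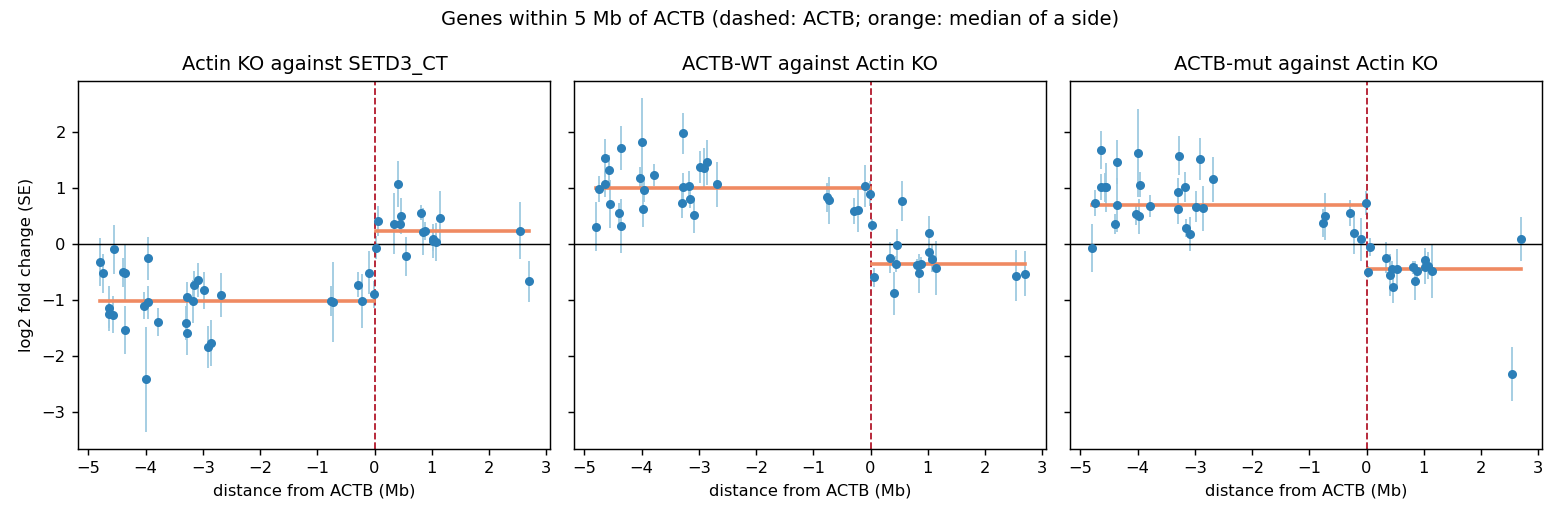
Log2 fold change with SE of each gene with at least 10 CPM within 5 Mb of ACTB against its distance from ACTB, in 3 comparisons; the dashed line is ACTB and orange lines are medians of each side. Genes at lower coordinates lie around -1.02, 1.00 and 0.69, and those at higher coordinates around 0.23, -0.36 and -0.45.

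Genes whose pattern was most like each of the 5 were ranked by Pearson's r over the 18 libraries, after the mean of each table was subtracted, among genes with at least 32 CPM in both tables. These values describe libraries that share depth and composition. UBL5 (r = 0.82), ODC1 (0.79) and MPLKIP (0.78) were nearest to ACTB. HNRNPD (0.91), PGAM1 (0.90) and NCBP2 (0.90) were nearest to ACTG1, whose likeness values were the highest of the 5. For SETD3 they were ATP5F1E (0.76), RPL37 (0.74) and NDUFA6 (0.73), for NAA80 GBF1 (0.78), TRIM41 (0.74) and TNNT1 (0.73), and for ACTA2 LRRC45 (0.68), MRPL53 (0.62) and HINT2 (0.61). By rank correlation the 3 nearest to ACTA2 fell to between 0.39 and 0.49. Values of other genes fell as well, among them HNRNPD for ACTG1 (0.73), ODC1 for ACTB (0.64) and RPL37 for SETD3 (0.63). Only MPLKIP for ACTB (0.81) and ATP5F1E for SETD3 (0.80) rose.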

How the data were processed

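The deposited values were expected counts per gene, made by the authors with Trim Galore 0.4.5, cutadapt 1.15, RSEM 1.2.28 and Bowtie2 on GRCh38, per the submitters' processing notes. Sources used here do not give the annotation release or the strand setting. All value columns were matched to samples by name. Counts were rounded and tested with edgeR 4.0.16 (robust quasi-likelihood F tests, TMM, filterByExpr, R 4.3.3), with all 3 groups of a table in 1 fit (13882 and 13846 genes) and all 18 libraries in 1 fit for Actin KO against SETD3_CT (15580 genes). Two-sided p-values were adjusted by Benjamini-Hochberg over every gene tested in a comparison, and a gene was called under 0.05. All 5 genes passed the filter in every fit. SE was obtained from the log2 fold change and the root of its F statistic. Alternatives used DESeq2 1.42.0, limma 3.58.1 (voom), RLE scaling, no filter, GC offsets, a replicate block, pseudogene counts and left-out libraries. Lengths and coordinates came from GENCODE release 29, and promoters from RefSeq. On simulated counts, fold changes of 2 and 4 were recovered for 49% and 93% of changed genes in the ACTB-WT against Actin KO fit, 19% and 86% in the SETD3_KO1 fit and 28% and 89% in the joint fit. The changed genes were drawn from genes with higher mean counts than ACTA2 and NAA80, with spread set to the trend. These percentages thus do not cover ACTA2 and NAA80. Replicates of a group differed by more than sampling noise in every pair. The 5 genes were named throughout; the other genes named were list members called in a comparison, every listed isoform and modifier, copies, overlapping genes and the 3 most alike in pattern, with a few listed genes and the neighbours of ACTB chosen after their values were seen. The genes and lists were chosen with earlier results of these data known.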

Additional observations from a re-analysis of the deposited data

How the results depend on the processing

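Of 467 alternative values for the 5 genes (pseudogene counts were an alternative for ACTB and ACTG1 alone, and DESeq2 gave no adjusted p in 2 cases), 440 kept direction and side of the threshold, 5 gained a call (ACTB in ACTB-mut against Actin KO, ACTG1 in ACTB-mut against ACTB-WT) and 1 lost it (ACTG1 with GC offsets). The 21 that changed sign were uncalled throughout. Leaving out 1 library each gave ranges of -0.23 to 0.30 for NAA80 and -0.0117 to 1.13 for ACTA2 in ACTB-WT and ACTB-mut against Actin KO, and -0.60 to 0.21 for SETD3 and -0.35 to 0.20 for NAA80 in Actin KO against SETD3_CT. For SETD3_KO2 against SETD3_CT they were -0.44 to 0.00694 (ACTB), -0.30 to 0.17 (ACTG1), -0.23 to 0.58 (SETD3) and -0.0366 to 0.55 (NAA80), with -0.00615 for SETD3 under GC offsets. NAA80 ran from -0.94 to 0.41 in SETD3_KO1 against SETD3_CT, with -0.33 by limma-voom, and from -0.11 to 1.30 between the knockout lines.

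Calls over all genes, in the order ACTB-WT and ACTB-mut against Actin KO, ACTB-mut against ACTB-WT, SETD3_KO1 and SETD3_KO2 against SETD3_CT, SETD3_KO2 against SETD3_KO1 and Actin KO against SETD3_CT, were 155, 128, 172, 2, 8, 4 and 32. They were 320, 371, 402, 58, 68, 58 and 95 without a filter and 358, 395, 446, 72, 90, 56 and 120 with DESeq2. Limma-voom gave 195 for ACTB-mut against Actin KO and 9 between the knockout lines. GC offsets gave 8 and 21 for SETD3_KO1 and SETD3_KO2 against SETD3_CT. Fits of 2 groups alone gave 104 for ACTB-mut against ACTB-WT, 1 for each SETD3 line against SETD3_CT and 11 for Actin KO against SETD3_CT. Left-out libraries gave 79 to 106, 34 to 77, 60 to 129, 0 to 4, 3 to 7, 3 to 5 and 13 to 29. GC offsets changed the split of higher and lower calls from 45 and 83 to 64 and 60 in ACTB-mut against Actin KO, and from 88 and 84 to 96 and 49 in ACTB-mut against ACTB-WT. The cause was not tested.

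Replicate numbers share only a label: deviations of same-numbered libraries correlated at -0.555 to 0.266, and in no comparison were all 3 pairs above 0.1. With the replicate block the counts were 89, 85, 83, 0 and 1 for the first 5 comparisons, NAA80 in SETD3_KO1 against SETD3_CT was -0.25, and no other sign and no call changed among the 5 genes. Values under 20 CPM were limited by depth and replicate spread. They were those of ACTA2, most of NAA80, part of SETD3, and ACTB in Actin KO replicates 1 and 3.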
